A study of Mus musculus with 6 samples.

Results

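Transcripts of 10 growth factor receptor tyrosine kinases were measured in sorted sensory ganglion cells of mouse embryos. The genes were Kit, Met, Igf1r, Insr, Fgfr1, Fgfr2, Fgfr3, Alk, Tyro3 and Axl, chosen by symbol as receptor tyrosine kinases outside the Ret and Trk families, and all 10 were found among 41388 gene identifiers. Cells came from dorsal root ganglia of spinal levels T11 to S1 of C57BL/6 embryos at 18.5 dpc (days post coitum), and were sorted by flow cytometry with the viability dye 7-AAD. Every embryo carried a Ret-EGFP reporter, described in the series text as EGFP knocked into the Ret locus in heterozygotes and in the genotype label as a transgene, Tg(Ret-EGFP)SJ. If knocked in, 1 Ret allele was altered in embryos of both sexes. Female libraries were A (60 ganglia of 3 embryos), B and C (20 ganglia of 1 embryo each). Male libraries were A (60 ganglia of 3 embryos), C and D (40 ganglia of 2 embryos each).

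A receptor tyrosine kinase reaches across the cell membrane, with its ligand bound outside and its kinase domain inside, and ligand binding lets paired kinase domains phosphorylate each other. The phosphorylated tail then recruits adaptors such as Grb2 and the regulatory subunits of PI3 kinase, which start the MAP kinase and AKT pathways. In sensory neurons such receptors act beside Ret and the Trk receptors: KIT, the receptor for stem cell factor, is a known receptor of small-diameter sensory neurons, and MET, the receptor for hepatocyte growth factor, is known to promote sensory axon growth. IGF1R and INSR bind insulin-like growth factors and insulin, and FGFR1 to FGFR3 bind fibroblast growth factors. TYRO3 and AXL belong with MERTK to the TAM family, which binds GAS6 and protein S. ALK responds to the small ligands ALKAL1 and ALKAL2.

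The kinases share the catalytic loop, the stretch of the kinase domain that holds the catalytic aspartate. The coding sequence of this loop is shown to let the reader see how alike the 10 transcripts are in a stretch that they share. Each line gives 24 bases (8 codons) of the coding strand from GENCODE M21 transcripts on GRCm38, with capitals at the 11 positions where the 10 genes are not all alike and lower case at the 13 where they are.
Kit: caCAgAgaTTtGgcAgcCAgGaaT
Igf1r: caCAgAgaCCtTgcTgcTAgGaaC
Insr: caCCgGgaCCtGgcAgcTCgAaaC
Fgfr1: caCCgAgaCCtGgcTgcTAgGaaC
Fgfr2: caTCgAgaTTtGgcTgcCAgAaaC
Fgfr3: caCAgAgaCTtGgcTgcCAgAaaC
Axl: caTCgGgaCCtGgcTgcCAgGaaC
Tyro3: caCCgAgaCCtAgcAgcTCgGaaT
Met: caCAgAgaCTtAgcTgcAAgAaaC
Alk: caCCgGgaTAtTgcTgcTAgAaaC

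In these 24 bases Igf1r and Fgfr1 shared 22, and so did Met and Fgfr3, the closest pairs of the 10 genes. Within the ligand families, Fgfr2 and Fgfr3 shared 21, Fgfr1 and Fgfr3 20, Fgfr1 and Fgfr2 19, Igf1r and Insr 18, and Tyro3 and Axl 17. The Kit window lies on chromosome 5 at chr5:75649553-75649576 (plus strand) and the Axl window at chr7:25763289-25763312 (minus strand). The Igf1r window is at chr7:68212096-68212119 (plus strand) and the Met window at chr6:17562239-17562262 (plus strand), and each of these windows is exonic coding sequence. The Alk window is split by an intron. Apart from the loop, whole transcripts of the 10 genes were searched for 31-base stretches that also occur in any other gene. No 31-base stretch of the Kit, Met, Alk, Tyro3 or Axl transcripts occurred in a transcript of another gene, and 0.185% of those of Igf1r and 0.409% of those of Insr did. The share was 2.69% in Fgfr2, where 314 exon bases lie in Ctbp2 on the same strand, and 3.75% in Fgfr1. It was 14.9% in Fgfr3, so that the Fgfr3 count depends most on how reads with more than 1 match were counted. That setting is not given in the sources.

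The libraries held 17861500 to 29330101 counts each. Levels are given in CPM, the count of a gene scaled to a common library total. A gene with a count of 0 could still have been present at 0.102 to 0.168 CPM, which is 3 counts of a library, and this limit covers counting error only, because no molecular identifiers were used to count amplified molecules once. The labels give each library as its own pool, without saying which libraries shared a litter, so p-values measure the spread between these pools. All 12 sensory neuron markers were present, with a summed level of 14833 to 20139 CPM in female libraries and 15215 to 15907 CPM in male libraries. Ret averaged 24.7 ± 3.70 RPKM (SD, n = 6). RPKM here is CPM per kilobase of the deposited exon length. Satellite glia and Schwann cell markers summed to 2589 CPM in male A and 1194 to 1322 CPM in the other 5 libraries, and fibroblast markers to 2874 CPM in male A and 574 to 675 CPM in the others. The library labelled male C had 63.4 CPM of Xist, against 103 to 199 CPM in female libraries and 0.448 and 0.560 CPM in the other males, and its Y-linked Ddx3y was at 61.5 CPM. Results that rest on male A are therefore given with and without it, and results for sex were also computed without both male A and male C.

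To place the receptors in order, their length-scaled levels were compared within and across libraries. Kit was highest in every library, and Igf1r and Fgfr1 followed. Alk and Fgfr2 were close to the limit of detection. The mean RPKM spanned a range from 23.3 for Kit to 0.0612 for Fgfr2. Kit, Igf1r and Fgfr1 were above 83.5%, 69.4% and 58.5% of the 14958 tested genes by RPKM, and the other 7 were above 34.2% at most. All receptors but Alk and Fgfr2, 8 of 10, passed the filter on low counts. Among 41 receptor tyrosine kinase genes of the files, Kit ranked 1 and Igf1r 2, followed for these genes by Fgfr1 at 6, Insr at 11, Axl at 13, Tyro3 at 16, Fgfr3 at 23, Met at 26, Alk at 33 and Fgfr2 at 35. These ranks are by the mean of all 6 libraries and lean in part on male A.

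**Figure D1:**
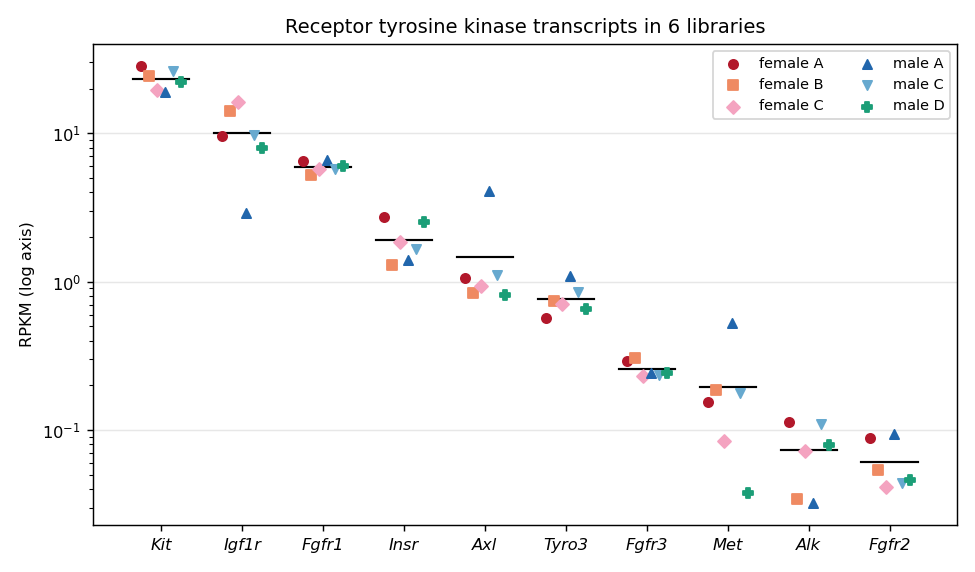
RPKM (log axis) of the 10 receptor genes in each of the 6 libraries, female libraries left of male ones within each gene, with a bar at the mean. Kit is on top in every library, the male A triangle is far above the others for Axl and Met and far below for Igf1r, and Alk and Fgfr2 lie lowest.

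Kit (ENSMUSG00000005672, chromosome 5, 75574916 to 75656722, plus strand) had 28.4, 24.3 and 19.7 RPKM in female A, B and C, and 18.96, 26.1 and 22.0 RPKM in male A, C and D. The values of the sexes overlapped, and the highest was 1.50 times the lowest. Kit took 43.2% to 57.5% of the summed RPKM of the 10 receptors. The ratio of Kit to Ret in the same library lay between 0.768 and 1.07, so Kit and Ret transcripts were at similar levels per length in all 6 libraries. Mast cells and melanocytes also express Kit. The 9 markers of these cells summed to 1.83 to 3.87 CPM in female libraries and 1.77 to 2.40 CPM in male libraries, with Fcer1a, Mcpt4 and Tyr at 0 in every library, beside 111 to 166 CPM of Kit.

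Igf1r (ENSMUSG00000005533, chromosome 7, 67952859 to 68226780, plus strand), the receptor for IGF1 and IGF2, had 9.54, 14.1 and 16.2 RPKM in female A, B and C, and 2.92, 9.71 and 7.94 RPKM in male A, C and D. Male A was the lowest and the 1-embryo libraries female B and C the highest. Insr (ENSMUSG00000005534, chromosome 8, 3150922 to 3279617, minus strand), the insulin receptor, averaged 1.90 ± 0.585 RPKM (SD, n = 6). Its values were 26.1, 12.5 and 17.9 CPM in female A, B and C, and 13.5, 15.9 and 24.1 CPM in male A, C and D. Female A and male D were its highest libraries.

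The Igf1r level depends on the gene model. The deposited Igf1r exons sum to 4489 bases and end 6888 bases short of the gene's end in GENCODE M21, whose longest Igf1r transcript has 11409 bases. With the longest transcript as length, Igf1r had a mean of 3.96 RPKM and Fgfr1 9.60 RPKM, which puts Fgfr1 above Igf1r. With the deposited lengths the means were 10.07 for Igf1r and 5.96 RPKM for Fgfr1. The counts behind either value came from the deposited exons. Reads on the 6888 bases beyond them were not counted, so division by 11409 bases understates Igf1r. It is not an equal alternative to the value with the deposited length. Fgfr1 at 9.60 RPKM with its longest transcript was still below Igf1r at 10.07 RPKM with its deposited length. These means are close and male A went the other way, so the order of Igf1r and Fgfr1 was not settled.

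Fgfr1 (ENSMUSG00000031565, chromosome 8, 25513654 to 25575714, plus strand) varied least of the 8 receptors that passed the filter. It had 6.53, 5.22 and 5.71 RPKM in female A, B and C, and 6.57, 5.73 and 6.00 RPKM in male A, C and D. Its coefficient of variation (CV, the SD as a percentage of the mean) was 8.75% over the 6 libraries. Fgfr1 took 93.6% to 95.4% of the summed RPKM of Fgfr1, Fgfr2 and Fgfr3 in each library. Fgfr3 (ENSMUSG00000054252, chromosome 5, 33721724 to 33737068, plus strand) averaged 0.258 ± 0.0316 RPKM, from 32 to 51 counts a library. Fgfr2 (ENSMUSG00000030849, chromosome 7, 130162451 to 133123350, minus strand) had 14, 7 and 6 counts in female A, B and C, and 13, 10 and 7 in male A, C and D, too few to compare groups.

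Of the TAM receptors, Axl (ENSMUSG00000002602, chromosome 7, 25757273 to 25788705, minus strand) had 5.29, 4.20 and 4.70 CPM in female A, B and C, and 20.7, 5.54 and 4.07 CPM in male A, C and D. Male A was 4.34 times the mean of the other 5 libraries, which lay within 4.07 to 5.54 CPM. Tyro3 (ENSMUSG00000027298, chromosome 2, 119797733 to 119818104, plus strand) had 3.51, 4.59 and 4.35 CPM in female A, B and C, and 6.74, 5.32 and 4.07 CPM in male A, C and D. With the deposited lengths Tyro3 was below Axl per length in all 6 libraries, at a ratio of 0.265 in male A and 0.539 to 0.887 in the others. With the longest transcript as length, Tyro3 was at 1.03 and Axl at 0.986 RPKM in female B, so the order there depends on the gene model.

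Met (ENSMUSG00000009376, chromosome 6, 17463800 to 17573980, plus strand) was read at 26, 26 and 13 counts in female A, B and C, and 77, 43 and 6 counts in male A, C and D. In CPM that was 1.19, 1.44 and 0.651 in the females and 4.02, 1.36 and 0.287 in the males, so the highest and the lowest library were both male. Alk (ENSMUSG00000055471, chromosome 17, 71869442 to 72603709, minus strand) had 12, 3 and 7 counts in female A, B and C, and 3, 17 and 8 counts in male A, C and D. Female B and male A were at 3 counts, no more than a count of 0 allows, so neither a fold nor an order among libraries was drawn for Alk.

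With the deposited lengths, the order of neighbouring receptors held in all 6 libraries for 4 of 9 neighbouring pairs. Kit was above Igf1r, Fgfr1 above Insr, Axl above Tyro3 and Tyro3 above Fgfr3. The order was set on these same values, so these counts are a description with no p. Igf1r was above Fgfr1, and Insr above Axl, in 5 of 6 libraries, with male A the exception in both. Fgfr3 was above Met in 5, Met above Alk in 5, and Alk above Fgfr2 in 4, and in each of these 5 pairs the mean log2 difference was below its SD over libraries. Without male A, 7 of the 9 pairs held in the other 5 libraries. With the longest transcript as length 3 pairs held in all 6, which were Kit above Fgfr1, Fgfr1 above Igf1r and Tyro3 above Fgfr3, and by CPM 2 pairs held. The pair of Fgfr1 and Igf1r rests on the understated Igf1r value.

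The spread between libraries differed widely among the 8 receptors that passed the filter. The CV was 8.75% for Fgfr1, 12.3% for Fgfr3, 16.0% for Kit, 23.8% for Tyro3, 30.7% for Insr, 46.6% for Igf1r, 88.0% for Axl and 88.3% for Met. Their median was 27.3%, close to the 25.3% of all tested genes. Without male A the CV was 13.6% for Axl, 15.2% for Tyro3, 30.3% for Igf1r and 50.4% for Met. The median was then 14.7% for the 8 receptors and 20.2% for all tested genes. Met was read at 6 to 43 counts in these 5 libraries, and counting error is a part of its spread.

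Male A deviated in opposite directions for different receptors. It was the highest library for Axl, Met and Tyro3 and the lowest for Igf1r and Kit. Fgfr1 was nearly level in male A and female A, at 53.4 and 53.0 CPM. Fgfr2 and Alk had too few counts for male A to be placed. Relative to the mean of the other 5 libraries male A stood at 4.34 for Axl, 4.08 for Met, 1.54 for Tyro3, 1.13 for Fgfr1, 0.928 for Fgfr3, 0.786 for Kit, 0.698 for Insr and 0.254 for Igf1r. Among all tested genes, 31.1% were highest and 28.4% lowest in male A, and 8.64% were at least 2-fold above and 11.6% at or below 0.5 of the mean of the others. In the same library 9 of 12 glia markers, 7 of 8 fibroblast markers, 8 of 9 endothelial and pericyte markers and 6 of 7 macrophage markers were at their highest. Endothelial markers summed to 105 CPM in male A and 43.4 to 82.9 CPM in the others. Macrophage markers summed to 13.4 CPM in male A and 7.48 to 11.6 CPM in the others, and Csf1r was at 0 in 3 of the other libraries. The summed neuron markers of male A, at 15236 CPM, lay inside the range of the other 5, but 7 of the 12 were at their lowest in male A and 3 at their highest. Pou4f1, a sensory lineage transcription factor, had 475 CPM in male A, against 510 to 1459 CPM in the others. The part of these other cell types in the Axl, Met and Igf1r values was not tested. In bulk RNA, more cells of a type and more RNA per cell cannot be told apart.

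**Figure D2:**
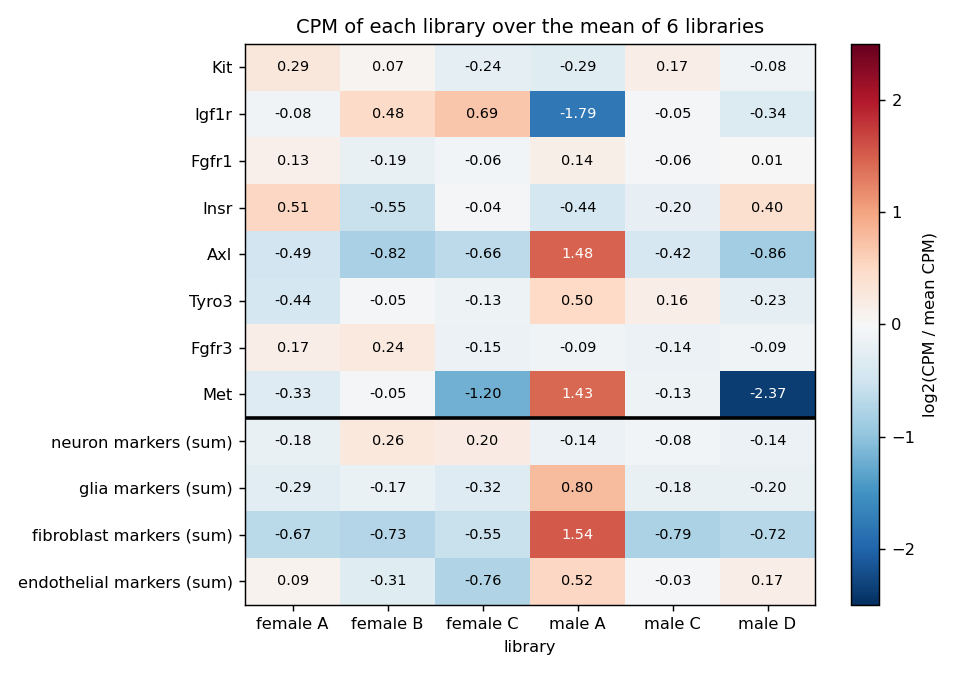
log2 ratio of each library's CPM to the mean of the 6 libraries for the 8 tested receptors, and below the line for the summed CPM of 4 lists of cell type markers; columns are libraries and red is above the mean. Male A reads 1.48 for Axl, 1.43 for Met and -1.79 for Igf1r, beside 1.54 for the fibroblast sum and 0.80 for the glia sum.

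Ligands of the receptors were read in the same sorted cells, from lists compiled by family. Kitl, which encodes stem cell factor, averaged 51.7 ± 16.7 RPKM (SD, n = 6), above Kit in every library at a ratio of 1.17 to 3.17. Kitl was 363, 330 and 359 CPM in female A, B and C, and 128, 238 and 369 CPM in male A, C and D, lowest in male A. Ptn, which encodes pleiotrophin, a growth factor that has been proposed as an ALK ligand, was at 140 ± 30.1 RPKM, next to 0.0734 ± 0.0352 RPKM of Alk. Alkal2 was at 0.840 ± 0.324 RPKM and Alkal1 had no counts in any library. The sorted cells thus held transcripts of both KIT and its ligand, and ligand transcripts without more than traces of Alk.

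Fgf1, a secreted ligand of the FGF receptors, averaged 47.7 ± 8.02 RPKM and was 6.17 to 9.62 times the RPKM of Fgfr1. The highest genes of the FGF list were Fgf13 at 802 ± 152 RPKM and Fgf12 at 50.4 ± 13.4 RPKM, which encode intracellular FGF homologous factors that bind sodium channels and are not ligands of these receptors in the usual sense. Of the insulin and IGF list, the binding proteins Igfbp5 and Igfbp2 led with 12.8 ± 1.39 and 8.75 ± 1.83 RPKM. Igf1 was at 2.81 ± 1.11 RPKM, 0.139 to 0.601 of the Igf1r level. Igf2 was at 14.0 to 23.8 CPM in 5 libraries and 85.3 CPM in male A.

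Of the Met pathway, Hgf, the ligand, had 6.66, 6.09 and 1.75 CPM in female A, B and C, and 1.41, 7.75 and 6.28 CPM in male A, C and D. Male A, the library highest in Met, was the lowest in Hgf. Spint2, an inhibitor of the proteases that activate the ligand, led that list at 19.5 ± 5.94 RPKM. The TAM ligand genes Pros1 and Gas6 averaged 2.82 ± 2.47 and 2.31 ± 0.541 RPKM. Pros1, like Axl, was highest in male A, at 4.29 times the mean of the other 5 libraries, and Gas6 was at 1.07 times. Downstream, the adaptor Grb2 was at 24.1 ± 3.46 RPKM and Pik3r1, the p85 subunit of PI3 kinase, at 24.0 ± 5.26 RPKM, both at the level of Kit. Other receptor tyrosine kinases were led by Insrr, an orphan receptor of the insulin receptor family, at 8.29 ± 1.44 RPKM, and Erbb3, a neuregulin receptor of glia, at 7.32 ± 4.79 RPKM and 3.15 times the other libraries in male A.

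**Figure D3:**
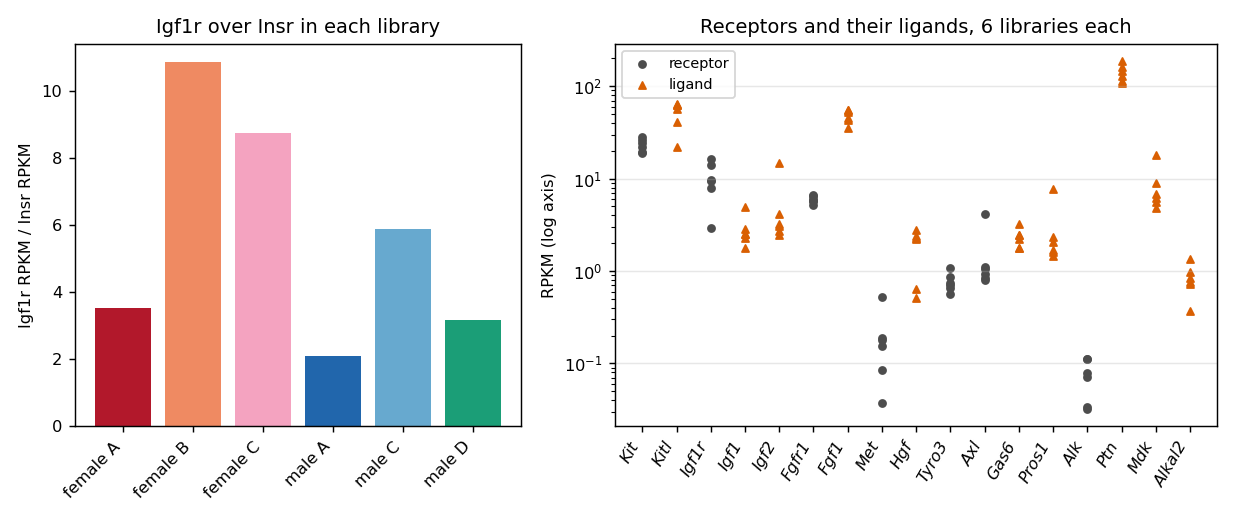
Left, the ratio of Igf1r to Insr RPKM (deposited lengths) in each library as bars from 0, female libraries left of male ones. Right, RPKM (log axis) of receptors (grey circles) and ligands (orange triangles), 1 symbol for each of the 6 libraries; Igf1r over Insr is 10.9 and 8.74 in female B and C and at most 5.87 elsewhere, and Kitl lies above Kit and Ptn far above Alk.

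Female and male libraries were compared to ask whether any receptor differed by sex. None of the 8 tested receptors passed an adjusted p of 0.05 (edgeR quasi-likelihood test, Benjamini-Hochberg over 14958 genes), whereas 0.0267% of all genes were called lower and 0% higher in females, and none had female and male values that did not overlap, which held for 8.06% of all genes (4.18% higher and 3.88% lower in females). Igf1r came nearest, with 59.6 ± 15.3 CPM in the 3 female libraries and 30.8 ± 15.8 CPM in the 3 male libraries (SD), a log2 change of 0.95 (SE 0.40, 95% interval 0.04 to 1.86, edgeR unadjusted p = 0.0427, adjusted p = 0.961). Without male A the Igf1r change was 0.59 (SE 0.26, edgeR adjusted p = 0.999), and over all alternatives its adjusted p lay between 0.318 and 1. An unadjusted p under 0.05 was reached by 4.42% of all genes and by Igf1r alone of the 8. Xist was not called either, at 103 to 199 CPM in females, 63.4 CPM in male C and 0.448 and 0.560 CPM in males A and D. A large difference between the sexes can thus go uncalled in this comparison.

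The other receptors had intervals that include 0. Kit averaged 141 ± 25.6 CPM in females and 130 ± 20.96 CPM in males, a log2 change of 0.11 (SE 0.22, interval -0.38 to 0.60) that was -0.00 with plain library totals and -0.03 without female A, and Fgfr1 had a change of -0.07 (SE 0.19, interval -0.50 to 0.37). These intervals leave room for Kit to differ between the sexes by up to 0.60 on the log2 scale and Fgfr1 by up to 0.50. Axl had a log2 change of -1.09 (SE 0.56, interval -2.35 to 0.17) with all libraries and -0.03 (SE 0.30) without male A. Met had -0.78 (SE 0.78), and 0.36 (SE 0.67) without male A, so its direction turned. Without both male A and male C it was 1.89 (SE 0.93, interval -0.14 to 3.92, edgeR adjusted p = 0.983), set against male D alone with 6 counts; over all alternatives the adjusted p of Met lay between 0.443 and 1. Tyro3 had -0.37 (SE 0.31), Fgfr3 0.20 (SE 0.36) and Insr 0.08 (SE 0.33), which was -0.00 with plain library totals and -0.36 without both male A and male C. The median change was 0.01 for the 8 receptors, -0.66 for 24 other tested receptor tyrosine kinases and -0.00 for all tested genes. Of the 31 other receptor tyrosine kinases 16 were highest in male A, and without male A their median was -0.25, against 0.02 for all tested genes. Erbb3, Pdgfra, Pdgfrb, Kdr and Tek are also in the glia, fibroblast or endothelial and pericyte marker lists, which thus partly hold the same genes. In the same comparison the median change was -0.89 for glia, -1.10 for fibroblast and -1.07 for endothelial and pericyte markers with all libraries, and 0.00 for glia, -0.08 for fibroblast and -0.34 for endothelial and pericyte markers without male A. The part of these cells was not tested. No gene of the ligand, receptor and adaptor lists was called in this comparison.

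**Figure D4:**
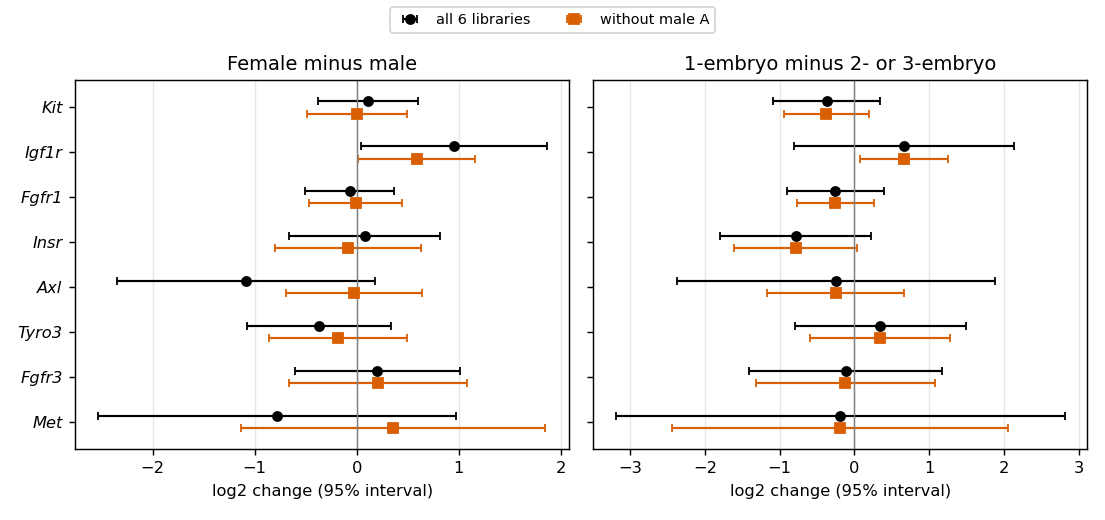
Log2 change of the 8 tested receptors with its 95% interval from the edgeR fit, for females minus males (left) and for 1-embryo libraries minus libraries of 2 or 3 embryos with sex in the fit (right); black circles use all 6 libraries and orange squares leave out male A. For females minus males the Axl change is -1.09 with all libraries and -0.03 without male A, and the Met change turns its sign.

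Libraries of 1 embryo (female B and C) were set against those of 2 or 3 embryos, with sex in the fit, so that the estimate is females B and C minus female A and leans on that 1 library. The records of female B and C are also written in another form than the rest, and this and the number of embryos cannot be told apart. None of the 8 receptors was called (edgeR quasi-likelihood test, adjusted p of 0.05), and 0% of all genes were called in either direction. An unadjusted p under 0.05 was reached by 483 genes (3.23%) with edgeR, and DESeq2 called 13 genes and limma voom 0. Igf1r had a log2 change of 0.67 (SE 0.63, interval -0.80 to 2.14), Insr -0.78 (SE 0.43, interval -1.80 to 0.23) and Kit -0.37 (SE 0.31, interval -1.09 to 0.35). Without male A, which enters this estimate through the spread only, the Igf1r interval was 0.07 to 1.26 (edgeR adjusted p = 0.534, and 0.196 to 1 over all alternatives). The changes were 0.35 for Tyro3, -0.12 for Fgfr3, -0.19 for Met, -0.25 for Axl and -0.26 for Fgfr1. Over all libraries, Igf1r was higher and Fgfr1 lower in both 1-embryo libraries than in the other 4, a lack of overlap that 21.6% of all tested genes showed in either direction (11.3% higher and 10.3% lower). The median change was -0.22 for the 8 receptors, -0.40 for the 24 other receptor tyrosine kinases and -0.00 for all tested genes.

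The ratio of Igf1r to Insr within a library is free of scaling between libraries. With the deposited lengths it was 3.51, 10.9 and 8.74 in female A, B and C, and 2.09, 5.87 and 3.17 in male A, C and D. The size of the ratio depends on the gene model, and the order of the libraries does not. The deposited Insr exons also end short of the gene's end in GENCODE M21, by 28861 genome bases. They sum to 9633 bases, against 9355 for the longest Insr transcript. With the longest transcript as length, Igf1r was at 1.15 and Insr at 1.44 RPKM in male A. That Igf1r value is understated, because its count leaves out the last 6888 bases of that length. In this ratio both 1-embryo libraries lay above the other 4 (exact two-sided permutation test, p = 0.133, the smallest that 2 against 4 allow, 0.489 adjusted over 11 ratios). Both are female and the test leaves sex out, so it cannot tell sex and number of embryos apart. Females and males overlapped (exact permutation test, p = 0.2, smallest possible 0.1, 0.66 adjusted). The ratios of Kit to Igf1r and of Igf1r to Igf2r also parted the 1-embryo libraries from the others, and all of these ratios share Igf1r. Immediate early genes, which are quickly induced by stimuli, summed to 957 and 702 CPM in female B and C, 351 CPM in female A, 731 CPM in male A and 298 to 393 CPM in males C and D. Their part in the Igf1r values was not tested.

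Genes whose log2 CPM followed each receptor most closely over the 6 libraries were listed by Pearson's r among 8875 genes of at least 10 CPM, as a description with no test. The points share library, depth and amplification, and with so many genes and 6 libraries a high r is common. Kit was nearest to Zfp870 (r = 0.988), Gpr75 and Asb1. Igf1r was nearest to Gin1 (r = 0.994), Snx12 and Tmf1, with 60 genes at an r of 0.95 or more. Fgfr1 was nearest to Zc3h4 (r = 0.983), Cox18 and Mtus2, and Insr to Fam217b (r = 0.988), Stx16 and Kcnn2. Tyro3 was nearest to Timm10 (r = 0.992), Oser1 and Tm9sf4, Fgfr3 to Tbpl1 (r = 0.984), Ldlrad3 and Paxip1, and Met to Ilkap (r = 0.991), Tmem39a and Slc29a4. Axl had 227 genes at an r of 0.95 or more, led by Zfyve21 (r = 0.996), Sema3b and Itgb1bp1. Without male A the r of Axl with Zfyve21 was 0.883, whereas that of Kit with Zfp870 was 0.983.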

How the data were processed

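RNA-seq libraries of sorted Ret-EGFP dorsal root ganglion cells were made from 10 ng of RNA with a SMARTer ultra low input kit, per the labels' protocols. Reads were aligned with Subread and counted with featureCounts 1.4.5 on GRCm38.p2, per the submitters' processing notes. The authors deposited, per library, a raw count per Ensembl gene, its exon length, and CPM and RPKM. The deposited CPM is the count over the library total, and the deposited RPKM is that CPM over exon length. Both were recomputed from the counts, with a largest difference of 4.5e-11 for CPM. Only counts and lengths were used further. Symbols matched 40254 of 41388 identifiers.

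The members and lists were chosen with earlier results of these data known. Levels are CPM with TMM factors (edgeR 4.0.16, R 4.3.3), and RPKM is that CPM over deposited length. Tests used edgeR's quasi-likelihood F-test on genes kept by filterByExpr (14958), with sex, or sex and number of embryos, in the fit and Benjamini-Hochberg adjustment over all tested genes. The common dispersion was 0.0966. Named genes were all members, the 2 highest by mean RPKM of each other list and each called gene, and 3 nearest by r. The ligand genes Fgf1, Igf1, Igf2, Alkal1 and Alkal2 and the receptor gene Igf2r, outside this rule, were chosen after their values were seen. Markers named singly, such as Pou4f1 and Csf1r, were picked from the marker lists. Alternatives were other scaling, no filter, DESeq2 1.42.0, limma 3.58.1 voom, leaving out libraries, the replicate letter as a block, and other lengths. No pair of libraries agreed within sampling noise (chi-square per gene 17.7 or more). Loop sequences and shared 31-base stretches were read from GENCODE M21 transcripts of GRCm38.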

Additional observations from a re-analysis of the deposited data

Results flagged for a closer look

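In 2 of the 10 receptors, 1 library stood so far from the other 5 that its gap to the nearest exceeded the 95% critical value of Dixon's test for 6 values. Axl had 20.7 CPM in male A, against 4.07 to 5.54 CPM in the other libraries, a gap of 0.912 of the range, and 0.811 on log2 values. Met had 4.02 CPM in male A, against 0.287 to 1.44 CPM in the others, a gap of 0.692 of the range. On log2 values the gap of Met was 0.39 of the range and no longer past the critical value. Chance flags about 1 in 20 groups when no library stands apart. Here male A was the highest library for 31.1% and the lowest for 28.4% of all tested genes. The share of all tested genes that this rule flags was not computed, so 2 of 10 cannot be read as an excess among the receptors. Both values come from the library in which fibroblast and glia markers were highest, and the part of those cells was not tested.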

How the results depend on the processing

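No receptor was called by sex or by number of embryos under any alternative, and counts over all genes moved more. For females minus males, 4 genes were called, 14 with no filter on low counts, 13 with DESeq2, 1 with limma voom, 0 with the number of embryos as a term and 0 to 5 when 1 library was left out, the 0 without female A. Deviations from the sex means had correlations of -0.134 for the libraries with letter A and 0.035 for letter C. With 3 libraries in each sex these values cannot decide whether the letters pair the samples. A fit with the replicate letter as a block called 77 genes and 0 receptors, and only the letters A and C occur in both sexes. For 1-embryo libraries, 0 genes were called, 3 with no filter, 13 with DESeq2, 139 without both male A and male C and 0 when 1 library was left out; the fit without female A could not be made. The causes were not tested. Neighbouring receptor pairs that held in all libraries were 4, 3 with the longest transcript as length, 2 by CPM not divided by length, and 4 to 7 with 1 library left out (7 without male A). Scaling by plain library totals put the median change by sex over all genes at -0.117 (log2) and turned the sign of the Kit and Insr changes. By sex, the change kept its sign in all alternatives for Igf1r (0.47 to 1.29, adjusted p 0.318 to 1) and Fgfr3. It changed sign for Met and Insr without male A and without both male A and male C (to 1.89 for Met and -0.36 for Insr in the last), for Kit and Insr without female A, for Axl (to 0.21) and Tyro3 without both male A and male C, and for Fgfr1 without female B and with the number of embryos as a term. By number of embryos it changed sign for Met and Fgfr3 without female C. Depth limits Alk, Fgfr2 and Met.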

Other observations

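The genes named here were chosen after their values were seen. Fgf5 and Fgf18, secreted FGFs, were read in every library. Fgf5 was even, at 20.7, 22.1 and 18.2 CPM in female A, B and C, and 20.7, 19.3 and 21.4 CPM in male A, C and D. Fgf18 was at 7.76, 11.6 and 11.4 CPM in the females and 3.76, 6.77 and 7.48 CPM in the males, so that every female library was above every male one, as in 8.06% of all tested genes in either direction. Its log2 change was 0.77 and was not called. Igfbp6, an IGF2-binding protein, had 20.5 CPM in male A, against 0.277 to 2.25 CPM elsewhere. Mst1r, the receptor related to Met that binds macrophage-stimulating protein, averaged 6.09 ± 1.30 RPKM, above Met in these cells. Mertk, the third TAM receptor, was at 1.37, 0.111 and 0.801 CPM in female A, B and C, and 3.08, 0.601 and 1.05 CPM in male A, C and D, highest in male A as Axl was.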
